A study of Mus musculus with 8 samples.

Results

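Genes of the mitochondrial ribosome were followed through KLS and MEP cells of mouse bone marrow. Members were all genes whose symbol in the array annotation starts with Mrpl or Mrps and a number, each read by its brightest probe set. There were 77 such genes among 19938 measured, 48 with an Mrpl and 29 with an Mrps symbol. Of the protein-coding genes with such a symbol in the RefSeq table, Mrpl53 alone was not among them, because its probe set also carries the name Ccdc142. The names alone set which genes are members, while the probe set that stands for each was picked by its brightness.

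The study has 8 arrays, 1 for each independent RNA preparation from 4 or 6 pooled C57BL/6J mice. WT KLS and WT MEP are sorted cells of wild-type mice, and TG KLS and TG MEP are the same fractions of mice whose genotype label reads ∆Hmga2, in a series titled for overexpression of HMGA2. Each group had 2 arrays, no other treatment is named, and the labels give no ages. KLS cells are lineage-negative and carry Sca-1 and c-Kit, the fraction in which blood stem cells are found. MEP cells give rise to megakaryocytes and red cells. The labels do not say which promoter drives the altered Hmga2, or in which cells. Because RNA came from pools of sorted cells, fewer cells of a type and less RNA per cell cannot be told apart.

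The mitochondrial ribosome translates the few messenger RNAs of the mitochondrial genome, all of which encode subunits of the respiratory chain and ATP synthase. Its proteins are encoded in the nucleus, made in the cytosol and imported. Some have counterparts in bacterial ribosomes, and others are found in mitochondria alone. Stem cells of the marrow are known to rely less on respiration than their progeny, and red cell precursors need mitochondria to make haem and iron-sulphur clusters.

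The sorted fractions were checked first. Of 9 KLS markers 7 were measured, and 5 of these were called as higher in KLS than in MEP cells, led by the stem cell transcription factor Hlf. Of 10 MEP markers 9 were measured, and 2 were called as higher in MEP cells, the blood group gene Rhd and the transferrin receptor Tfrc. In all, 8 of the 9 had a KLS minus MEP difference below 0, and the integrin gene Itga2b of the megakaryocyte lineage was at 0.27 ± 0.11 (SE), not past the threshold. Of 5 platelet and megakaryocyte markers 4 were measured, and all 4 had a difference above 0, at a median of 0.35, with 0 called. Among them the platelet chemokine Pf4 was at 1.57 ± 0.36 (SE, adjusted p = 0.0686 by limma). Of 11 granulocyte and monocyte markers 5 were called as higher in KLS cells. As deposited, medians of the arrays ran from 6.34 to 6.45 in log2. Hmga2 itself was at 6.85 and 7.12 in WT KLS, 7.35 and 7.11 in TG KLS, 6.70 and 6.74 in WT MEP and 6.95 and 6.99 in TG MEP cells, in log2. Its difference over both cell types, 0.25 ± 0.11 (SE), did not pass (limma adjusted p = 0.999), and whether its probe set lies in the part kept by ∆Hmga2 was not checked.

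Before the levels, the promoters of the members were searched for short motifs. RefSeq start sites of build GRCm38.p6 were matched by gene ID for 68 of the 77 members, with 250 bases before and 50 after each start, and 5 motifs were searched on both strands. The letters CCGGAAG, bound by ETS factors such as GABPA, were in 24 of 68 member promoters (35.3%) and in 9.12% of all 27025 promoters. The NRF1 motif was in 13 (19.1%) against 4.78%, and the YY1 letters AANATGGCG in 11 (16.2%) against 2.51%. At least 1 of these 3 was found in 40 of 68 member promoters, and the share over all promoters was not counted. The CCAAT box CCAATCA was in 9 (13.2%) against 8.20%, and the TATA box TATAAAA in 4 (5.9%) against 5.78%. A promoter counted once for each motif, overlaps between motifs were not removed, and a match says only that the letters are in the window.

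Shown here are the 150 bases before the start of 3 members that hold a motif there. They were taken from the members with the smallest p in each direction of the KLS and MEP comparison, not from those with the largest difference. Of the others in that selection, Mrpl33 and Mrpl20 held no searched motif in this stretch, and Mrpl4 had no promoter sequence. Capitals mark the NRF1 motif in Mrpl9, the ETS letters in Mrpl58 and the CCAAT box, read on the other strand, in Mrps30.
Mrpl9, chr3:94443186-94443335, plus strand: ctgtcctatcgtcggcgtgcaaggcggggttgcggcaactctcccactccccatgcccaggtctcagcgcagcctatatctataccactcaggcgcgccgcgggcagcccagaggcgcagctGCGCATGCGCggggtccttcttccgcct
Mrpl58, chr11:115403602-115403751, plus strand: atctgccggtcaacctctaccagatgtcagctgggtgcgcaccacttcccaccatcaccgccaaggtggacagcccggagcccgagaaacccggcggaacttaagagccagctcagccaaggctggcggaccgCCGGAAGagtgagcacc
Mrps30, chr13:118387253-118387402, minus strand: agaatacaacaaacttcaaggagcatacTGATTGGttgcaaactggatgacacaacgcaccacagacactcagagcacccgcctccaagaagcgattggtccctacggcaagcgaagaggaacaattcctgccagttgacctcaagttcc
Each of the 3 printed stretches holds a different motif. In the full searched windows Mrpl58 and Mrps30 both held the YY1 letters as well.

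Many members also start back to back with a neighbour. An opposite-strand start within 1000 bases upstream was found for 26 of 68 members (38.2%) and for 11.4% of all genes. In 1 pair both genes are members: the starts of Mrpl46, of the large subunit, and Mrps11, of the small subunit, lie 42 bases apart. In the wider windows searched above, Mrps11 held the YY1 letters and Mrpl46 the TATA box. The 41 bases between the starts hold none of the 5 motifs and are given on the strand of Mrpl46.
Mrpl46 and Mrps11, chr7:78783090-78783130, minus strand: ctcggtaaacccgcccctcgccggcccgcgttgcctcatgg
Other members face genes of the same organelle. Mrps12, of the decoding site, lies 147 bases from Sars2, the mitochondrial seryl-tRNA synthetase. Mrpl43 lies 116 bases from Twnk, the mitochondrial DNA helicase, and Mrpl47 308 bases from Ndufb5, a subunit of respiratory complex I. Mrpl49 lies 192 bases from Fau, which encodes a protein of the cytosolic ribosome. Of the 22 measured partners that are no members, 13 had a TG minus WT difference above 0 over both cell types, and 19 of the members facing them did. Both counts were 7 of 22 for KLS minus MEP, and 0 partners were called between the cell types. The TG minus WT difference was above 0 for 46.0% of all genes and 83.1% of all members. For KLS minus MEP these shares were 53.5% and 33.8%, and 1.60% of all genes were called.

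At the median, the members varied across the 8 arrays about as much as all genes did. A member's values spanned 0.50 in log2 at the median, from 0.17 for Mrpl39 to 1.42 for Mrpl47, and 74 of 77 members (96.1%) stayed within a span of 1. Over all genes the median span was 0.52 and 89.6% stayed within 1. Mean values of the probe sets ran from 6.80 for Mrps27 to 11.76 for Mrps18c, but each probe set has its own brightness, so these levels are not set against each other.

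The widest spans belonged to Mrpl47, Mrps36, Mrpl32, Mrpl35 and Mrpl52 by SD, and they had a common shape. Mrpl47, a large subunit protein at the exit of the peptide tunnel, was at 7.18 and 8.16 in WT KLS, 7.92 and 8.37 in TG KLS, 8.05 and 8.50 in WT MEP and 8.44 and 8.60 in TG MEP cells. Mrps36, first named as a ribosomal protein and since also described as part of the oxoglutarate dehydrogenase complex, was at 7.37 and 8.68 in WT KLS and at 8.08 to 8.73 on the other arrays. Mrpl32, which is processed by a mitochondrial protease in yeast and mouse before it joins the ribosome, was at 7.84 and 8.81 in WT KLS and at 8.35 to 9.09 elsewhere. Each was lowest on WT KLS 1, well below its value on WT KLS 2. Mrpl35 was at 8.42 on WT KLS 1 and Mrpl52 at 8.95, again the lowest of the 8, against 9.19 and 9.83 on WT KLS 2. Mrps36 and Mrpl47 each have a second, dimmer probe set. That of Mrps36 was at 7.08 on WT KLS 1 and 8.40 on WT KLS 2. The one of Mrpl47 did not have this shape, at 6.95 on WT KLS 1, 6.85 on WT KLS 2 and lowest, at 6.83, on TG MEP 1.

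**Figure D1:**
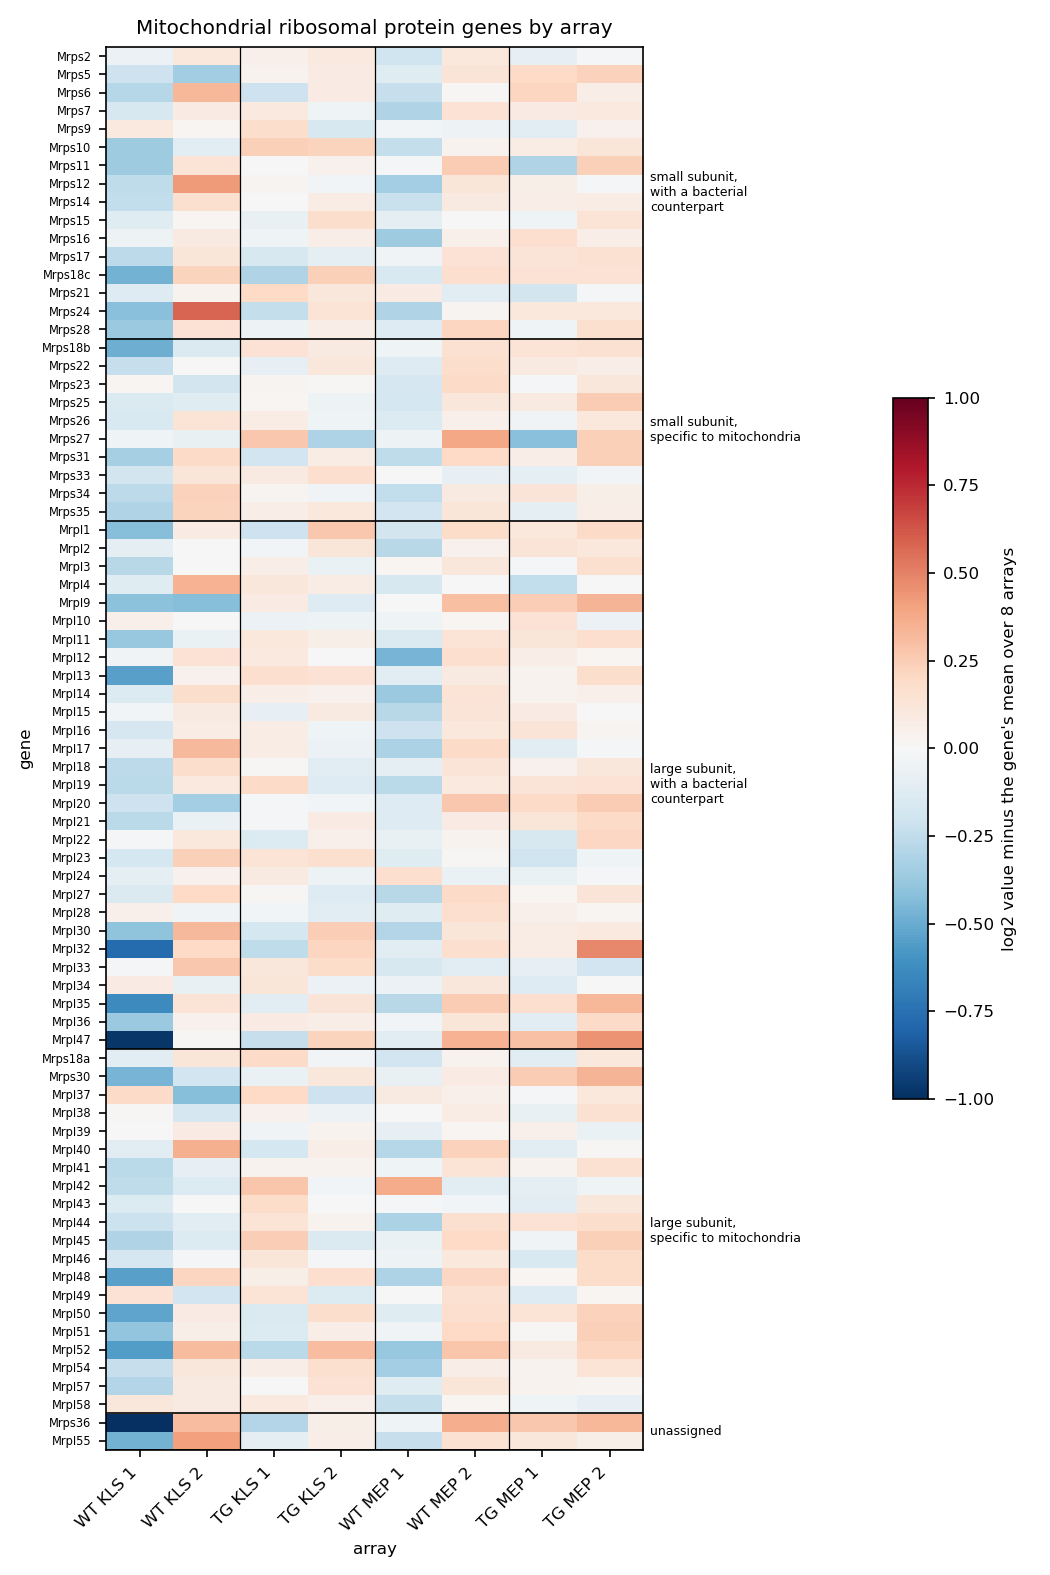
Log2 value of each of the 77 members (rows, by subunit and by bacterial counterpart) on each of the 8 arrays (columns), minus the gene's mean over the 8 arrays. The WT KLS 1 and WT MEP 1 columns are mostly blue, and 61 of the 77 members had their lowest value on 1 of these arrays.

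This shape ran through the whole family. WT KLS 1 gave the lowest of the 8 values for 42 members (54.5%) and WT MEP 1 for 19 (24.7%), against 10.8% and 20.1% of all genes. Together they held the lowest value of 61 members (79.2%) and of 30.9% of all genes. The mean over the 77 members was 8.70 on WT KLS 1 and 9.01 on WT KLS 2, 8.96 and 8.99 on the TG KLS arrays, 8.80 on WT MEP 1 and 9.06 on WT MEP 2, and 8.97 and 9.06 on the TG MEP arrays. The replicates of each WT group thus lay further apart than any WT group mean from its TG counterpart. Of the 77 members, 64 (83.1%) were lower on WT KLS 1 than on WT KLS 2, and 70 (90.9%) lower on WT MEP 1 than on WT MEP 2, against 43.4% and 62.3% of all genes. In TG KLS 39 members (50.6%) were lower on array 1, and in TG MEP 60 (77.9%), against 37.0% and 59.2% of all genes.

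Which array stood second lowest depended on the scaling. With the values as deposited, the members' mean was 8.68 on WT KLS 1, 8.88 on TG MEP 1 and 8.90 on WT MEP 1, and TG MEP 1 held the lowest value of 17 members and WT MEP 1 of 5. WT KLS 1 held the lowest value of 45 members as deposited and of 42 with each array centred on its median.

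Other gene families were set beside the members. The mean over 82 nuclear-encoded respiratory chain genes was 10.12 on WT KLS 1 and 10.13 on WT MEP 1 and between 10.24 and 10.36 on the other 6 arrays. Cytosolic ribosomal proteins, 61 genes, had means of 11.67 and 11.66 on these arrays and 11.69 to 11.74 on the others. Other mitochondrial lists had closer WT KLS means. On WT KLS 1 and 2 they were 8.35 and 8.29 for translation factors and 7.66 and 7.58 for aminoacyl-tRNA synthetases. They were 7.62 and 7.63 for mitoribosome assembly, 8.30 and 8.30 for transcription and maintenance, and 8.32 and 8.19 for biogenesis regulators. WT MEP 1 and 2 gave 8.37 and 8.56, 7.69 and 7.83, 7.64 and 7.85, 8.45 and 8.50, and 8.40 and 8.31 in that order. Markers of other cells also differed between the WT MEP arrays. The mean over 9 of 10 lymphoid markers was 7.97 on WT MEP 1 and 6.60 on WT MEP 2, and 6.41 and 6.42 in TG MEP cells, and that over 11 granulocyte and monocyte markers was 9.78, 9.08, 8.32 and 8.53. The KLS markers had a mean of 7.34 on WT MEP 1 and 6.63 to 6.70 on the other MEP arrays, against 8.30 to 8.58 in KLS cells. The platelet and megakaryocyte markers had 6.39 on WT MEP 1, 5.78 to 6.00 on the other MEP arrays and 6.49 to 6.72 in KLS cells. In WT KLS cells the lymphoid means were 7.47 and 7.26 and the granulocyte and monocyte means 10.55 and 10.66, against 7.20 and 6.96 and 10.70 and 10.22 in TG KLS cells. The part of these other cells in the member values, in the TG and WT comparisons and in that of KLS with MEP cells, was not tested.

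**Figure D2:**
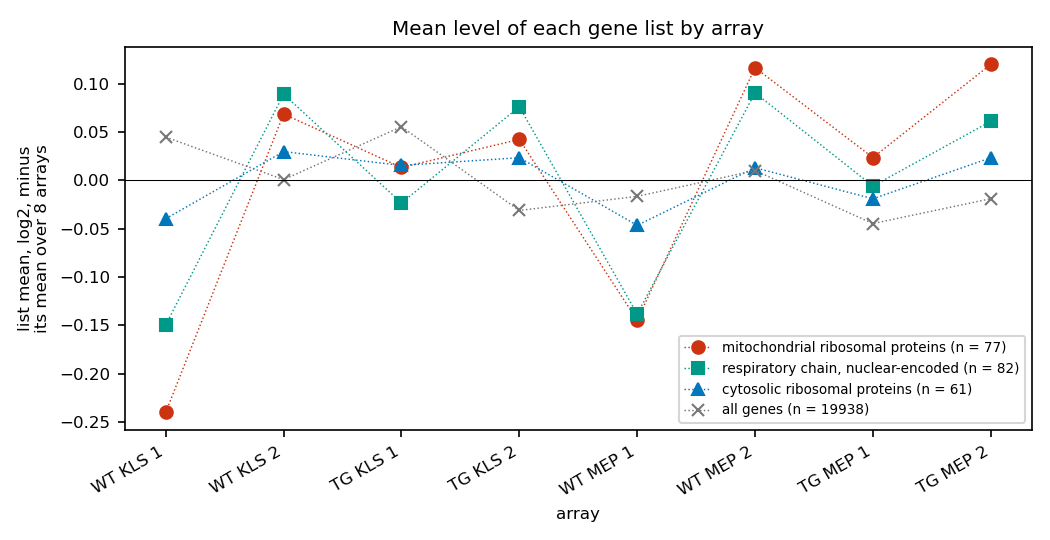
Mean log2 value of 4 gene lists on each array (x axis), minus the list's own mean over the 8 arrays (y axis); dotted lines only join the points of a list. Mitochondrial ribosomal protein genes and respiratory chain genes are both lowest on WT KLS 1 and WT MEP 1, and the cytosolic ribosomal protein genes move less. The cytosolic genes have array medians of 12.47 to 12.54, near the highest value of any gene, 13.28 to 13.47 by array. Whether this brightness limits their movement was not tested.

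The first genotype comparison asks how the members differ between TG and WT cells, averaged over KLS and MEP cells. It shares its arrays with the comparisons within each cell type, so their values are given side by side and not as support for each other. Of the 77 members 0 passed (limma, adjusted p under 0.05), as 0% of all genes did. At an unadjusted p under 0.05, 5 members (6.49%) stood above WT and 0 below, against 1.19% and 2.07% of all genes, or 3.26% in either direction. The median difference over the members was 0.092 in log2, with 64 of 77 above 0, against -0.012 and 46.0% over all genes. Without WT KLS 1 the median was 0.015, without WT MEP 1 0.022, and without both, an alternative chosen after seeing the data, -0.043 with 25 of 77 above 0.

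In the small subunit the largest of these differences was in Mrps10, a protein of the subunit's head. It was at 7.74 and 7.99 in WT KLS, 8.33 and 8.31 in TG KLS, 7.86 and 8.13 in WT MEP and 8.17 and 8.21 in TG MEP cells. All 4 TG arrays lay above all 4 WT arrays, which held for 1 of 77 members (1.3%) and for 0.582% of all genes, and the reverse held for 0 members and 1.02% of all genes. The difference was 0.33 ± 0.11 (SE, 95% interval 0.078 to 0.58), or 1.25 fold, and did not pass (adjusted p = 0.999). It was 0.20 without WT KLS 1 and WT MEP 1.

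Mrps5, which lines the entry of the messenger RNA channel, was at 8.17 and 8.04 in WT KLS, 8.42 and 8.46 in TG KLS, 8.26 and 8.51 in WT MEP and 8.58 and 8.61 in TG MEP cells. Within each cell type its TG arrays lay above its WT arrays, and the difference was 0.27 ± 0.10 (SE, adjusted p = 0.999 by limma). A second, slightly dimmer probe set of Mrps5 gave 0.16 ± 0.10. Mrps18b, 1 of 3 mammalian relatives of a single bacterial protein, was at 8.05 and 8.39 in WT KLS, 8.69 and 8.64 in TG KLS, and at 8.50 to 8.70 in all MEP cells. Its difference over both cell types was 0.27 ± 0.11 (SE) and did not pass, with most of it in KLS cells at 0.44 ± 0.16 against 0.091 ± 0.16 in MEP cells. The interaction, the KLS difference minus the MEP difference, was 0.35 ± 0.22 (SE) and did not pass (limma adjusted p = 1.00).

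In the large subunit the largest difference, 0.36 ± 0.22 (SE), was in Mrpl47, whose values are given above, and it did not pass. The dimmer probe set of Mrpl47 gave 0.066 ± 0.14 (SE). The smallest p in the large subunit belonged to Mrps30, a protein that sits in that subunit despite its symbol. Mrps30 was at 7.96 and 8.23 in WT KLS, 8.35 and 8.54 in TG KLS, 8.35 and 8.51 in WT MEP and 8.67 and 8.76 in TG MEP cells. The TG arrays lay above the WT arrays within each cell type, and the difference was 0.32 ± 0.11 (SE, 95% interval 0.071 to 0.57; adjusted p = 0.999 by limma). Mrpl9, whose bacterial relative is a long protein at the ribosome's surface, differed by 0.27 ± 0.11 (SE) and did not pass either. Groups that did not overlap in both cell types, TG above WT, were seen for 4 members, Mrps10, Mrps5, Mrps30 and Mrpl21 (5.19%), and for 2.08% of all genes.

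Differences below 0 were small. Mrps27 was at -0.11 ± 0.19 (SE), Mrpl40 at -0.098 ± 0.15 and Mrpl49 at -0.054 ± 0.12, none past the threshold. Each of the 3 took the other sign when some single array was left out. In 0 members did the TG arrays lie below the WT arrays in both cell types, against 2.89% of all genes.

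**Figure D3:**
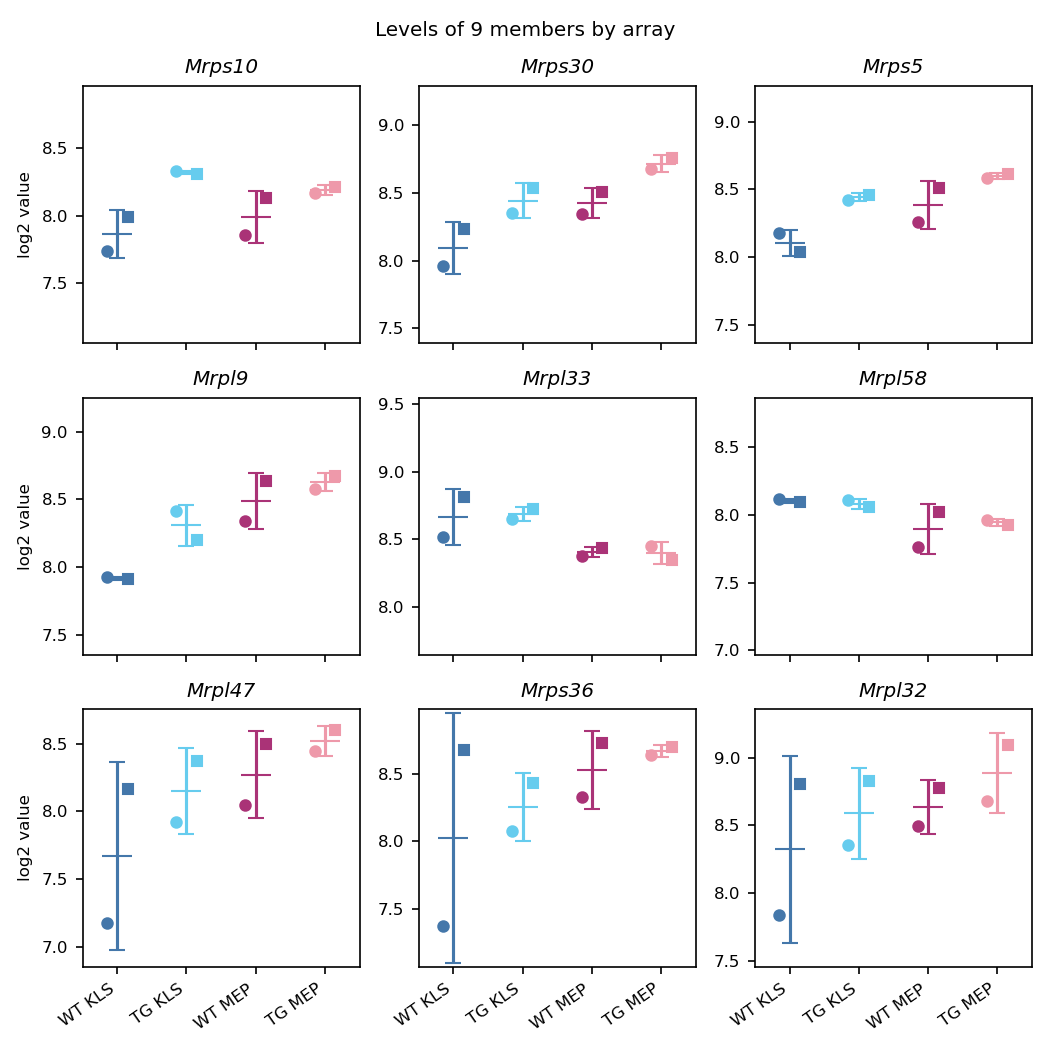
Log2 value of 9 members (panels) in the 4 groups (x axis); circles are array 1, squares array 2, bars the mean and whiskers 1 SD (n = 2), with y axes of equal span. In Mrps10 all TG values lie above all WT values, in Mrpl33 and Mrpl58 all KLS values lie above all MEP values, and in Mrpl47, Mrps36 and Mrpl32 WT KLS 1 is lowest.

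The differences ran through both subunits. Over both cell types 26 of 29 Mrps and 38 of 48 Mrpl genes had a difference above 0, with medians of 0.081 and 0.095. Among small subunit proteins the median was 0.076 for 16 with a bacterial counterpart and 0.084 for 10 classed as specific to mitochondria. Mrps18b was counted among these 10, although it has a bacterial relative. In the large subunit the median was 0.097 for 29 with a counterpart and 0.092 for 20 without. These medians were not tested against each other. Mrpl55 and Mrps36 were put in neither class.

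In KLS cells, the stem and progenitor fraction, 0 of 77 members passed, as 0% of all genes. At an unadjusted p under 0.05, 4 stood above WT (5.19%), Mrps10, Mrps18b, Mrpl9 and Mrps5, against 1.47% of all genes, and 0 below, against 1.03%. Mrps10 differed by 0.46 ± 0.15 and Mrpl9 by 0.39 ± 0.15 (SE), both not past the threshold (limma adjusted p = 1.00). TG arrays lay above WT arrays for 16 members (20.8%) and below for 1, Mrpl10 of the ribosomal stalk (1.3%), against 11.7% and 17.2% of all genes. The members' median was 0.10, with 59 of 77 above 0, against 45.8% of all genes. Without WT KLS 1 it was -0.048, with 29 of 77 above 0, and without WT KLS 2 it was 0.26, with 67 above 0. In the other direction Mrpl40 was at -0.18 ± 0.22 and Mrpl17 at -0.12 ± 0.20 (SE). The scaling mattered here too. As deposited, the members' means were 8.68 and 8.92 in WT KLS against 9.01 and 8.96 in TG KLS. Under median centring they were 8.68 and 8.87 against 9.05 and 8.92. Both TG means lay above both WT means in each case. With quantile normalization they overlapped, at 8.70 and 9.01 against 8.96 and 8.99.

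In MEP cells, the progenitors of red cells and platelets, 0 of 77 members passed and 0 had an unadjusted p under 0.05, against 0% and 3.71% of all genes. Of all genes 1.24% stood above and 2.47% below WT at that p. Mrps30 differed by 0.29 ± 0.16, Mrps16, a protein of early small subunit assembly in bacteria, by 0.27 ± 0.17, and Mrpl2, near the peptidyl transferase centre, by 0.24 ± 0.15 (SE). Mrps16 was at 8.78 and 9.19 in WT and 9.31 and 9.21 in TG MEP cells, and Mrpl2 at 8.002 and 8.32 in WT and 8.41 and 8.39 in TG MEP cells, so that in each WT MEP 1 made most of the distance. TG arrays lay above WT arrays for 9 members (11.7%), among them Mrps24 and Mrps6, and below for 0, against 13.0% and 17.2% of all genes. The median was 0.091, with 61 of 77 above 0 against 48.0% of all genes, and -0.035 without WT MEP 1, with 26 of 77 above 0. It was 0.014 with the values as deposited and -0.013 with each array centred on its median, with 43 and 37 of 77 above 0.

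Whether the genotype difference itself differed between the cell types was tested as an interaction. It passed for 0 of 77 members, as for 0% of all genes, and 0 members had an unadjusted p under 0.05, against 2.27% of all genes, 1.16% above and 1.11% below 0. The members' median was 0.027, with 44 of 77 above 0 against 50.6% of all genes. It was 0.18 with the values as deposited and 0.24 with each array centred on its median. The smallest p belonged to Mrpl42, of the large subunit, at 0.52 ± 0.26 (SE). It was at 10.87 and 10.99 in WT KLS, 11.39 and 11.09 in TG KLS, 11.49 and 11.02 in WT MEP and 11.03 and 11.08 in TG MEP cells. Here WT MEP 1 was the highest array, against the run of the family, and without it the interaction was 0.28. Mrps21 was at 0.29 ± 0.21 (SE) and did not pass.

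**Figure D4:**
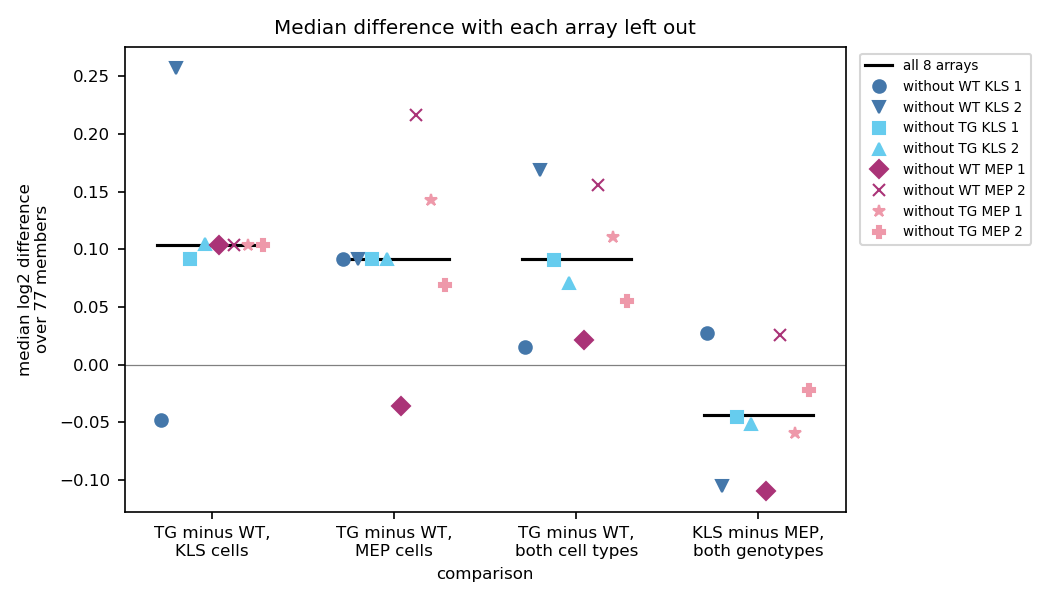
Median log2 difference over the 77 members (y axis) in 4 comparisons (x axis); the black line uses all 8 arrays and each symbol leaves out 1. The TG minus WT median in KLS cells moves from 0.10 to -0.048 without WT KLS 1, and that in MEP cells from 0.091 to -0.035 without WT MEP 1.

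The comparison of KLS with MEP cells, averaged over genotypes, asks how the members differ between the stem and progenitor fraction and the erythroid and megakaryocyte progenitors. Of the 77 members 0 passed, while 1.60% of all genes did, 1.20% higher in KLS and 0.396% in MEP cells. At an unadjusted p under 0.05, 1 member stood above 0 (1.3%) and 3 below (3.9%), against 8.02% and 6.24% of all genes, or 14.3% together. The median difference was -0.044, with 26 of 77 above 0, against 0.013 and 53.5% over all genes. It was 0.028 without WT KLS 1, 0.026 without WT MEP 2, and -0.11 without either WT KLS 2 or WT MEP 1. As deposited, the members' means were 8.68, 8.92, 9.01 and 8.96 on the KLS arrays and 8.90, 9.09, 8.88 and 9.14 on the MEP arrays. Median centred, they were 8.68, 8.87, 9.05 and 8.92 in KLS and 8.94, 9.11, 8.84 and 9.18 in MEP cells. By these means MEP cells lay further above KLS cells than with quantile normalization.

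Mrpl9 had the smallest p of any member. It was at 7.93 and 7.91 in WT KLS, 8.42 and 8.20 in TG KLS, 8.34 and 8.63 in WT MEP and 8.58 and 8.68 in TG MEP cells. The WT KLS arrays lay below all others, and TG KLS 1 lay above WT MEP 1. The difference was -0.45 ± 0.11 (SE, 95% interval -0.69 to -0.20), or 0.734 fold, and missed the threshold (limma adjusted p = 0.0872, from 0.0507 without WT MEP 1 to 0.256 without TG MEP 2).

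Mrps30 was at -0.30 ± 0.11 and Mrpl20, whose bacterial relative is an early assembly protein, at -0.29 ± 0.12 (SE), with limma adjusted p = 0.235 and 0.280. Mrpl20 was at 7.88 and 7.74 in WT KLS, 8.07 and 8.05 in TG KLS, 7.95 and 8.35 in WT MEP and 8.28 and 8.33 in TG MEP cells. WT MEP 1 alone of the MEP arrays reached into the KLS range.

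In the other direction stood Mrpl33, a small protein of the tRNA exit side. It was at 8.52 and 8.81 in WT KLS, 8.65 and 8.72 in TG KLS, 8.38 and 8.44 in WT MEP and 8.45 and 8.35 in TG MEP cells. The KLS and MEP arrays did not overlap, and the difference was 0.27 ± 0.10 (SE, 95% interval 0.032 to 0.51; adjusted p = 0.274 by limma). Mrpl58, a hydrolase that frees peptides from stalled ribosomes and is built into the large subunit, was at 8.11, 8.09, 8.11 and 8.06 in KLS and at 7.76, 8.02, 7.96 and 7.93 in MEP cells, a difference of 0.17 ± 0.10 (SE) that did not pass. Such a gap toward KLS cells was seen for these 2 members (2.6%) and for 4.41% of all genes, and toward MEP cells for 0 members and 4.63%. Mrpl4 was at 0.20 ± 0.13 (SE) and did not pass.

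The size of difference that the arrays could still hold is given by the intervals. For KLS minus MEP, the 95% interval lay within 1 log2 unit of 0 for 76 of 77 members. For TG minus WT over both cell types it did for 77, in KLS cells for 75, in MEP cells for 77, and for the interaction for 69. The median interval reached 0.27 to either side of the difference over both cell types and 0.39 within KLS cells. Before adjustment, the interval left out 0 for 5 members over both cell types, 4 in KLS cells, 0 in MEP cells, 0 for the interaction and 4 for KLS minus MEP. A missed threshold does not show equal levels.

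Other genes of mitochondrial translation were read from lists. Ribosomal proteins with other symbols were measured for 3 small subunit genes and 1 large subunit gene. The large subunit gene, Gadd45gip1, had a KLS minus MEP difference of -0.027 ± 0.10 (SE). Ptcd3, of the small subunit, stood farthest from 0. This pentatricopeptide protein was at 8.95 and 8.78 in WT KLS, 9.23 and 9.18 in TG KLS, 9.21 and 9.42 in WT MEP and 9.42 and 9.55 in TG MEP cells, with a KLS minus MEP difference of -0.37 ± 0.10 (SE, adjusted p = 0.129 by limma). Of 24 measured genes of mitoribosome assembly and rRNA modification 0 passed in any comparison. Their median was -0.084 between KLS and MEP cells, with 5 of 24 above 0, and Mettl15, an rRNA methyltransferase, was at -0.47 ± 0.11 (SE, adjusted p = 0.0670). Of 15 translation factors 1 was above 0, at a median of -0.13, with the elongation factor Gfm1 at -0.26 ± 0.11 (SE). Of 18 aminoacyl-tRNA synthetases 1 was above 0, at a median of -0.10, with the asparaginyl enzyme Nars2 at -0.47 ± 0.11 (SE, adjusted p = 0.0780). Over all genes 53.5% were above 0.

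Of 16 genes of mitochondrial transcription and DNA maintenance 5 were above 0 between the cell types, at a median of -0.14. Tfam, which packs mitochondrial DNA and starts its transcription, was at 8.25 and 8.47 in WT KLS, 8.75 and 8.44 in TG KLS, 8.78 and 9.06 in WT MEP and 8.997 and 9.01 in TG MEP cells. All MEP values lay above all KLS values, and the difference was -0.49 ± 0.12 (SE, adjusted p = 0.0886 by limma). Regulators of mitochondrial biogenesis, 12 genes, had a median of -0.075, with 5 above 0. Gabpa, an ETS factor, was at -0.23 ± 0.13 (SE). In these lists 0 genes passed in any of the 5 comparisons. For TG minus WT over both cell types their medians were 0.048 for assembly, 0.062 for translation factors, 0.055 for synthetases, 0.10 for transcription and maintenance and -0.028 for the regulators.

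The families most like the members were the cytosolic ribosomal proteins and the respiratory chain. For TG minus WT over both cell types the median was 0.011 over 61 cytosolic ribosomal protein genes, with 41 above 0, and 0.067 over 82 respiratory chain genes, with 61 above 0. Between KLS and MEP cells the medians were 0.014 and -0.025, with 0 called in each. The differences between the families were not tested.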

How the data were processed

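The deposited values are log2 probe set values made by the authors, 35556 per array, from 1.71 to 14.0, a scale taken from their range. The submitters' processing notes name Affymetrix Expression Console; how it summarized and normalized the probes is not stated there. Precision is limited by the number of arrays. P-values measure the spread between preparations. Values were quantile normalized, since array medians spanned 0.106. Probe sets with 1 symbol were used (21789; 1621 had several and 12146 none), updated by Entrez identifier, of which 21698 were found in RefSeq and 0 symbols changed, and the brightest per gene was kept, leaving 19938 genes. Of the members 8 have 2 probe sets, and which copy of a gene each reads was not checked. limma 3.58.1 in R 4.3.3 fitted a mean for each of 4 groups over 8 arrays, with 5 contrasts; residual degrees of freedom were 4, and 4.82 came from the prior. Tests were two-sided, with Benjamini-Hochberg adjustment over all genes and calls at an adjusted p under 0.05. The procedure was tested on simulated data for the KLS minus MEP comparison alone. The TG minus WT comparisons and the interaction were not simulated. The members and lists were chosen with earlier results of these data known. The naming rule took the members with the 5 highest and 3 lowest means and the 5 largest SDs. It also took up to 3 smallest p-values in each direction of a comparison (3 in all for the interaction). Of each other list it took the gene with the smallest p. Mrpl41 and Mrps33, among the highest means, and Mrpl38, among the lowest, are not described. Mrpl21, Mrps6, Mrps24, Mrpl39 and the members with neighbouring starts or 2 probe sets were chosen after their values were seen. For promoters, the first listed start of a gene was taken; Python 3.11.15 searched them.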

Additional observations from a re-analysis of the deposited data

How the results depend on the processing

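The count of members called was 0 in each of the 5 comparisons under every alternative run: deposited values, median centring, the mean over probe sets, an intensity trend with robust variances, the dimmest 30% of genes removed, the replicate block, 1 cell type alone, each array left out in turn, and WT KLS 1 and WT MEP 1 left out together. Same-numbered arrays of WT KLS, TG KLS and WT MEP deviated together (correlations of 0.18 to 0.38 over genes), but those of TG MEP ran opposite to all 3 (-0.28 to -0.17), so the numbers were not taken to pair the arrays. With the replicate number as a block the members' medians were the same (0.092 over both cell types, -0.044 for KLS minus MEP). Of all genes, 319 were called between the cell types, 123 with median centring, 562 with the block, 551 without both WT arrays, 1 without TG MEP 1 and 738 without WT MEP 1. For TG minus WT over both cell types 0 were called, 1 with the block and 67 without WT MEP 2, which also gave 144 in MEP cells and 10 for the interaction. The members' median for the interaction was 0.027, and 0.24 with median centring; the cause was not tested. With 1 array left out it ran from -0.11 to 0.14, the TG minus WT median from -0.048 to 0.26 in KLS cells, from -0.035 to 0.22 in MEP cells and from 0.015 to 0.17 over both, and the KLS minus MEP median from -0.11 to 0.028. A lone array left in a group is assumed to vary like the others. Named members that changed sign were all far from the threshold; the cause was not tested. In KLS cells Mrpl10 was at 0.025 with median centring, Mrpl40 ran from -0.41 to 0.053 and Mrpl17 from -0.32 to 0.084 with 1 array left out. In MEP cells Mrpl42 ran from -0.44 to 0.037, its value without WT MEP 1 or both WT arrays, and Mrps27 from -0.59 to 0.067. Over both cell types Mrpl40 ran from -0.23 to 0.032, Mrps27 from -0.27 to 0.053 and Mrpl49 from -0.14 to 0.030.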

Other observations

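The probe set shared by Ccdc142 and Mrpl53 was left out of the members. It was at 6.58 and 6.71 in WT KLS, 6.56 and 6.60 in TG KLS, 6.56 and 6.82 in WT MEP and 6.78 and 6.69 in TG MEP cells, a KLS minus MEP difference of -0.099 ± 0.10 (SE). Which gene gave the signal cannot be told from it.

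Members with 2 probe sets did not always read alike. Those of Mrps36 gave KLS minus MEP differences of -0.46 ± 0.26 each, and those of Mrpl23 0.18 ± 0.12 and 0.20 ± 0.12 (SE). For Mrpl47 the brighter gave -0.49 ± 0.22 and the dimmer -0.14 ± 0.14. For Mrpl51 and Mrpl27 the TG minus WT difference over both cell types took opposite signs, 0.088 ± 0.13 against -0.017 ± 0.20 and 0.018 ± 0.14 against -0.023 ± 0.18, and none of these passed limma's threshold.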
